A study of Mus musculus with 8 samples.

Results

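The small leucine-rich proteoglycans (SLRPs) of the dermis were followed here through 9 genes chosen by symbol: decorin (Dcn), biglycan (Bgn), lumican (Lum), fibromodulin (Fmod), osteoglycin (Ogn), asporin (Aspn), prolargin (Prelp), podocan (Podn) and osteomodulin (Omd). They are 9 of the 21368 gene symbols to which probes of the arrays could be matched by accession. A probe was matched for 8 of the 9, with 1 probe per gene, and none for Prelp. The probes of 7 members were well above background on all 8 arrays and were tested, and the Omd probe was above background on 0 arrays.

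The arrays hold RNA of cultured dermal fibroblasts from newborn C57BL/6 mice, isolated from skin with dispase and collagenase. Cells had been transfected with a mimic of miR-127-3p (4 arrays, samples 2, 4, 5 and 7) or with control oligonucleotides (4 arrays, samples 1, 3, 6 and 8), and both groups are primary cultures of the same strain and age that shared the culture medium and the transfection step. The treatment label of controls 3 and 6 names both oligonucleotides, whereas their title and source name read control, and they were taken as controls. Nothing in the labels says whether the samples came from separate cultures or animals, so the p-values measure only the spread between these samples, which may be technical.

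SLRPs are secreted proteins with a curved leucine-rich repeat core that binds collagen fibrils in the extracellular matrix. Most carry chondroitin, dermatan or keratan sulfate chains, and in skin they help to set the diameter and spacing of collagen fibrils and bind growth factors such as TGF-beta. Decorin is the best-known SLRP of the dermis, and loss of decorin, lumican or fibromodulin in mice disturbs collagen fibrils of skin or tendon. The transfected oligonucleotide mimics a microRNA, a short RNA that pairs through its seed with target transcripts. Its mature sequence is shown because it is what the mimic group received (RefSeq, GRCm38.p6, chr12:109592888-109592909, plus strand; capitals mark the seed, bases 2 to 8).
mmu-miR-127-3p: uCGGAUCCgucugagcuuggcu

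With the mimic, Dcn and Bgn rose, no member fell, and 5 members did not pass the test (limma, two-sided, Benjamini-Hochberg over 17106 features, threshold 0.05). Dcn was 2.27-fold and Bgn 1.32-fold higher. Both calls were lost with slide column as a block, each column holding 1 mimic and 1 control array (limma adjusted p = 0.0573 for Dcn and 0.0502 for Bgn), and with no background filter (0.0887 and 0.0508). The 2 of 7 called members are a share of 28.6%, against 34.2% of all features called, 15.9% higher and 18.3% lower, so the share of called SLRP genes lay near the background. Their median log2 fold change was 0.38, beside 0.02 over all features. Levels below are log2 processed signals relative to the array's 75th percentile, and levels of different genes are not set against each other because they come from different probes. Fewer cells of a type and less RNA per cell cannot be told apart in these bulk samples.

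**Figure D1:**
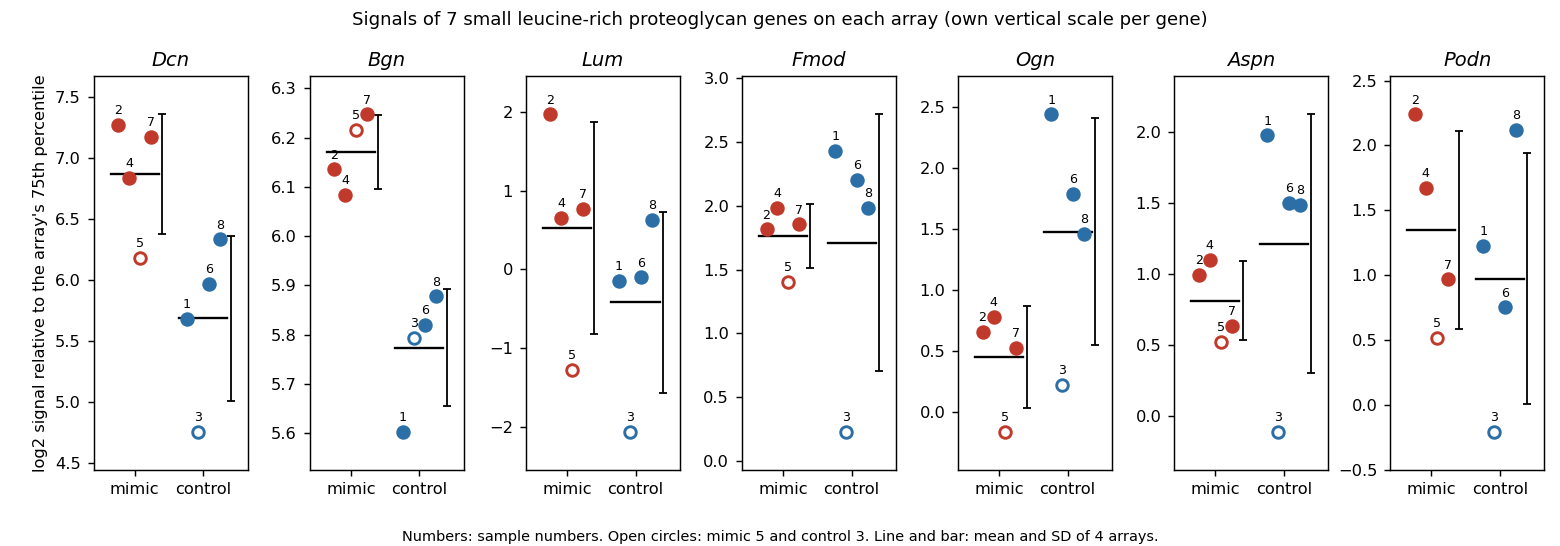
Log2 signal relative to the array's 75th percentile (vertical axis, own scale per gene) of the 7 tested SLRP genes in 4 mimic arrays (left, red) and 4 control arrays (right, blue); each point is 1 array with its sample number, the line and bar are the mean and SD, and open circles are mimic 5 and control 3. Bgn is the gene whose groups do not overlap, and in the other 6 panels both open circles are the lowest point of their group.

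Decorin, the class I SLRP that binds type I collagen and carries a chondroitin or dermatan sulfate chain, had log2 levels of 7.27, 6.84, 6.18 and 7.17 in mimic 2, 4, 5 and 7, against 5.68, 4.76, 5.96 and 6.33 in control 1, 3, 6 and 8. Mimic 2, 4 and 7 lay above every control, but mimic 5 lay below control 8, so the groups overlapped. The means were 6.87 ± 0.49 in mimic cells and 5.68 ± 0.67 in control cells (SD, n = 4 each), a log2 fold change of 1.18 (SE 0.36, 95% interval 0.37 to 1.99, limma adjusted p = 0.0324). The call was lost without mimic 2, mimic 4, mimic 7 or control 1, with limma adjusted p from 0.0703 to 0.0824, although the fold change without any single array stayed between 0.87 and 1.41. The slide holds its arrays in rows that each contain both groups, and within slide row 1 (samples 1 to 4) Dcn was 1.83 higher (limma adjusted p = 0.0434), against 0.53 within row 2 (samples 5 to 8, limma adjusted p = 0.389). With the row as a block the limma adjusted p was 0.0429, and with the column as a block 0.0573.

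Biglycan, a class I SLRP with chondroitin or dermatan sulfate chains whose soluble form is a ligand of Tlr2 and Tlr4, had the narrowest spread. Its log2 levels were 6.14, 6.08, 6.22 and 6.25 in mimic 2, 4, 5 and 7, against 5.60, 5.79, 5.82 and 5.88 in control 1, 3, 6 and 8. Every mimic array lay above every control array, and Bgn was the 1 member of 7 whose groups did not overlap, whereas 34.2% of all features had groups that did not overlap. The means were 6.17 ± 0.07 in mimic cells and 5.77 ± 0.12 in control cells (SD, n = 4 each), a log2 fold change of 0.40 (SE 0.09, 95% interval 0.20 to 0.59, limma adjusted p = 0.00823). The call held without any single array, with fold changes between 0.34 and 0.43. Within the slide rows, with 2 arrays per group, the difference was 0.41 in row 1 (limma adjusted p = 0.142) and 0.38 in row 2 (limma adjusted p = 0.122), and with the row as a block the limma adjusted p was 0.00726. With the column as a block it was 0.0502, and the call was lost.

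Asporin, the class I member named for its run of aspartate residues, and osteoglycin, a class III SLRP also called mimecan, had lower means in mimic cells, and neither passed the test. Ogn had log2 levels of 0.65, 0.78, -0.16 and 0.52 in mimic 2, 4, 5 and 7, against 2.44, 0.22, 1.79 and 1.46 in control 1, 3, 6 and 8. All 4 mimic arrays lay below control 1, 6 and 8, and control 3 lay among the mimic arrays. The log2 fold change of Ogn was -1.03 (SE 0.43, 95% interval -2.01 to -0.04, limma adjusted p = 0.0999). Aspn had log2 levels of 0.99, 1.10, 0.52 and 0.64 in mimic 2, 4, 5 and 7, against 1.98, -0.11, 1.50 and 1.48 in control 1, 3, 6 and 8. Here too control 1, 6 and 8 lay above every mimic array and control 3 lay below them all. The log2 fold change of Aspn was -0.40 (SE 0.40, 95% interval -1.32 to 0.52, limma adjusted p = 0.478).

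Fibromodulin and lumican are class II SLRPs that can carry keratan sulfate and bind collagen. Fmod had log2 levels of 1.81, 1.98, 1.40 and 1.85 in mimic 2, 4, 5 and 7, against 2.43, 0.23, 2.20 and 1.98 in control 1, 3, 6 and 8. Control 1, 6 and 8 lay at or above the top of the mimic range, with control 8 and mimic 4 together at 1.98, and control 3 lay far below. The log2 fold change of Fmod was 0.05 (SE 0.44, 95% interval -0.95 to 1.05, limma adjusted p = 0.942). Lum had log2 levels of 1.96, 0.66, -1.27 and 0.77 in mimic 2, 4, 5 and 7, against -0.15, -2.05, -0.10 and 0.63 in control 1, 3, 6 and 8. Mimic 5 was the second lowest of the 8 arrays and control 3 the lowest, and the other 3 mimic arrays lay above all controls. The log2 fold change of Lum was 0.94 (SE 0.74, 95% interval -0.75 to 2.64, limma adjusted p = 0.360), the widest interval of the 7 members.

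Podocan, a class V SLRP, had log2 levels of 2.24, 1.67, 0.52 and 0.97 in mimic 2, 4, 5 and 7, against 1.22, -0.21, 0.75 and 2.12 in control 1, 3, 6 and 8. Its groups overlapped across most of their range, and the log2 fold change was 0.38 (SE 0.52, 95% interval -0.81 to 1.56, limma adjusted p = 0.614). Osteomodulin, a keratan sulfate SLRP best known from bone, gave processed signals of 7.46, 9.54, 9.50 and 8.11 in mimic 2, 4, 5 and 7, against 8.23, 7.07, 7.90 and 11.1 in control 1, 3, 6 and 8. Those signals were not well above background on any array, so no fold was formed. A p-value that misses the threshold does not show that a member was the same in both groups, and the intervals of Lum, Fmod, Ogn, Aspn and Podn reach beyond 1 on the log2 scale in at least 1 direction.

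Control 3 and mimic 5 stood apart from their groups for most SLRP genes. Control 3 was the lowest control array for 6 of the 7 members, all but Bgn, and in each it lay at least 1 below the mean of the other 3 controls on the log2 scale. The deviations were -1.24 for Dcn, -1.57 for Podn, -1.68 for Ogn, -1.76 for Aspn, -1.97 for Fmod and -2.18 for Lum, against 0.03 for Bgn. Among all features, 2.22% lay that far below in control 3. Mimic 5 was the lowest mimic array for the same 6 members, with deviations of -0.39 for Aspn, -0.48 for Fmod, -0.81 for Ogn, -0.91 for Dcn, -1.11 for Podn and -2.40 for Lum, against 0.06 for Bgn. The 2 members at least 1 below in mimic 5 compare with 2.37% of all features.

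The low signals were not general to these arrays. Control 3 was the lowest control array for 22.7% of features and mimic 5 the lowest mimic array for 24.9%, and both had probe counts above background (22654 and 21440) inside the range over the 8 arrays of 20775 to 23485. Of 12 tested collagen genes, Col3a1 lay at least 1 below in control 3 and none did in mimic 5, and none of the 10 fibroblast markers did in either array. Of these markers Pdgfra came nearest, at 2.09 in control 3 against 3.06, 3.10 and 2.77 in control 1, 6 and 8. Vim, S100a4 and Fbln2 were instead highest of the controls in control 3. Of 6 adipocyte markers, Adipoq, Fabp4, Plin1, Cidec and Lpl lay at least 1 below in both arrays. The summed adipocyte level was 4.82, 5.12, 3.47 and 5.03 in mimic 2, 4, 5 and 7, against 5.25, 3.75, 4.89 and 4.79 in control 1, 3, 6 and 8, so mimic 5 and control 3 were the lowest of their groups here as well. On other arrays the 6 markers split. In mimic 2 and control 8, where Lum was highest of its group, Adipoq, Fabp4, Plin1 and Cidec lay below their group means, whereas Pparg lay above them by 0.51 and 0.40 and Lpl by 0.65 and 0.39. Of 4 tested skeletal muscle markers, Des and Myh3 lay at least 1 below in both low arrays and Myog in control 3. The summed skeletal muscle level was 5.03, 5.84, 6.13 and 5.79 in mimic 2, 4, 5 and 7, against 5.91, 6.18, 5.86 and 5.18 in control 1, 3, 6 and 8. Mimic 5 and control 3 were the highest of their groups in this sum. Acta1 had the largest signal in it and was itself highest there, at 6.10 in mimic 5 and 6.14 in control 3. The sum therefore does not speak for Des, Myh3 or Myog. Of 9 tested macrophage and leukocyte markers, Adgre1, Tyrobp and Fcer1g lay at least 1 below in mimic 5 and Adgre1 in control 3. Their summed level was 6.10 in mimic 5, inside the mimic range, and 5.50 in control 3, the highest of the controls. Itgam had the largest signal in that sum and was highest of its group in both arrays, at 5.71 and 5.10. Cd68, Csf1r, Lyz2, Adgre1, Tyrobp, Fcer1g, C1qa and C1qb were each lowest of the mimic arrays in mimic 5. In control 3, Adgre1, Fcer1g and C1qb were lowest of the controls. The part of adipocyte, muscle or macrophage RNA in the SLRP levels was not tested.

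**Figure D2:**
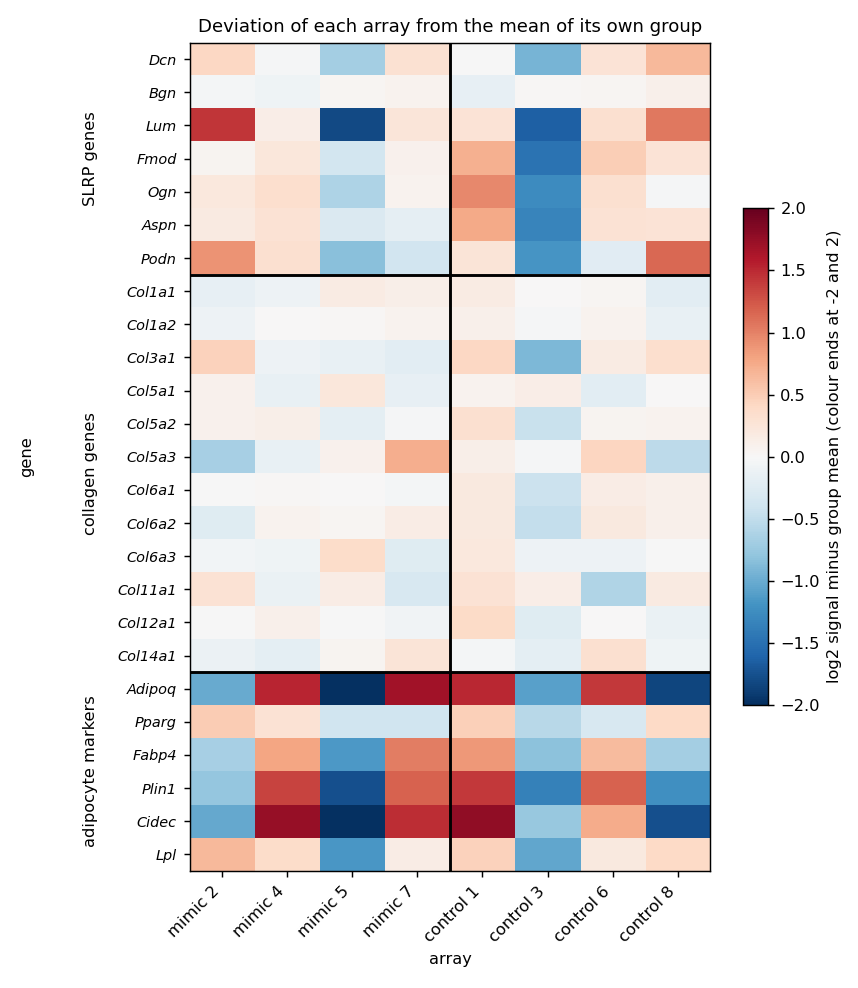
Log2 signal of each array minus the mean of its own group (colour, ends at -2 and 2) for the 7 tested SLRP genes, 12 collagen genes and 6 adipocyte markers (rows) in 4 mimic arrays and then 4 control arrays (columns). Mimic 5 and control 3 are blue for every SLRP gene except Bgn, pale for most collagens, and blue for the adipocyte markers, of which Adipoq, Fabp4, Plin1 and Cidec are blue in mimic 2 and control 8 too.

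Without control 3, 4 of the 7 SLRP genes were called, against 2 over all 8 arrays, and the share of all features called was 33.9% (17% higher and 16.9% lower). Control 3 was singled out after its low levels of these same genes had been seen. Leaving it out raised their control means, except that of Bgn, so this fit gives no separate support for the calls it adds. Leaving out any other single array gave 1 or 2 called SLRP genes. Ogn fell by 1.45 (SE 0.29, limma adjusted p = 0.00781) and Aspn fell by 0.84 (SE 0.19, limma adjusted p = 0.0116) on the log2 scale in that fit of 4 mimic against 3 control arrays. Dcn and Bgn kept their calls, at 0.87 (limma adjusted p = 0.0444) and 0.40 (limma adjusted p = 0.0165). Fmod turned to -0.44 (limma adjusted p = 0.0737) and Podn to -0.017 (limma adjusted p = 0.981).

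With mimic 5 left out as well, a choice made after the low arrays had been seen, the same 4 members were called, beside 34.1% of all features. Dcn was 1.10 (limma adjusted p = 0.00620) and Bgn 0.39 (limma adjusted p = 0.0321) higher, and Ogn and Aspn stood at -1.24 (limma adjusted p = 0.00910) and -0.74 (limma adjusted p = 0.0208). Lum was 1.00 higher with an interval of 0.09 to 1.91 (limma adjusted p = 0.0859), and Fmod stood at -0.32 (limma adjusted p = 0.104). In these 2 fits, Dcn and Bgn on one side and Ogn and Aspn on the other thus moved in opposite directions, and over all 8 arrays the calls for Ogn and Aspn did not stand. Within slide row 1 Dcn alone was called, beside 10.3% of all features. Within row 2 Aspn alone was called (-0.91, limma adjusted p = 0.0271), beside 9.42% of all features, with Ogn at -1.44 (limma adjusted p = 0.0512). Control 3 is in row 1 and mimic 5 in row 2, and the difference between rows was not tested.

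**Figure D3:**
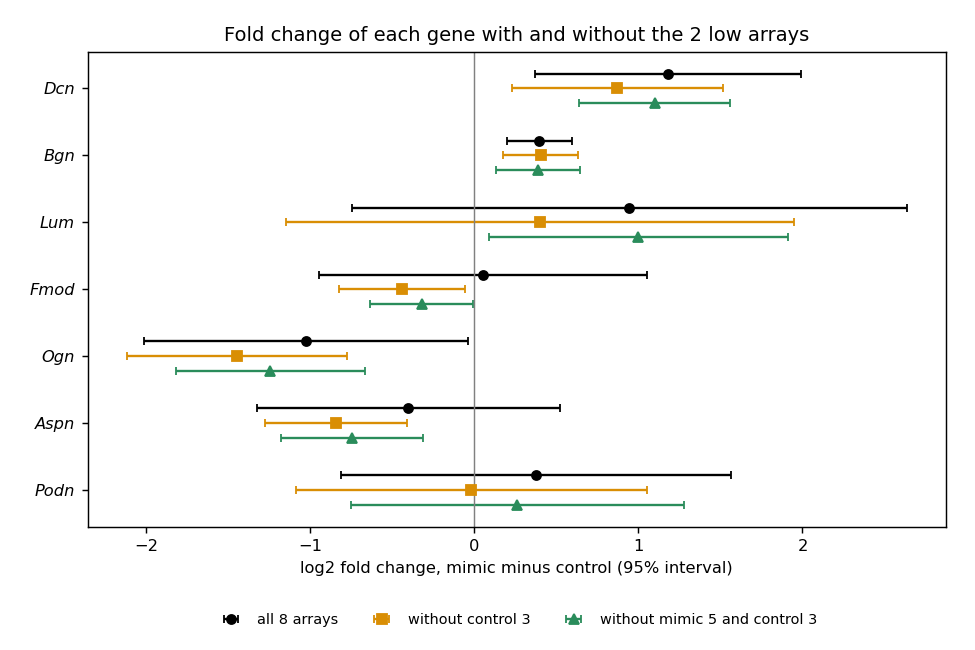
Log2 fold change, mimic minus control (horizontal axis), with its 95% interval for each of the 7 tested SLRP genes in all 8 arrays (black circles), without control 3 (orange squares) and without mimic 5 and control 3 (green triangles). Ogn and Aspn lie at -1.03 and -0.40 in all 8 arrays and at -1.45 and -0.84 without control 3, whereas Bgn stays between 0.39 and 0.40. The interval of Ogn leaves out 0 in every fit, and that of Aspn only in the fits without control 3.

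Ratios among Fmod, Ogn and Aspn on the same array varied less within the groups than the levels of these genes. The log2 ratio of Fmod to Ogn was 1.16, 1.20, 1.56 and 1.33 in mimic 2, 4, 5 and 7, against -0.01, 0.01, 0.41 and 0.53 in control 1, 3, 6 and 8. Mimic 5 and control 3 lay with the rest of their groups in this ratio, and the groups did not overlap. Its SD was 0.18 in mimic arrays and 0.27 in control arrays, beside SDs of the Fmod level of 0.25 and 1.00, and its mimic minus control difference was 1.08. The ratio of Fmod to Aspn differed by 0.45 and that of Ogn to Aspn by -0.63, again without overlap. A ratio does not say which of its genes differed, and none of these ratios passed the test after adjustment over all pairs.

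The log2 ratio of Dcn to Ogn was 6.62, 6.06, 6.35 and 6.65 in mimic 2, 4, 5 and 7, against 3.24, 4.54, 4.18 and 4.88 in control 1, 3, 6 and 8, a difference of 2.21. Every mimic array lay more than 1 above every control array. Ratios of Dcn to Aspn and of Dcn to Fmod were higher by 1.58 and 1.13, without overlap. Of all 21 pairs of the 7 members, 6 had groups that did not overlap, and they were the 6 pairs within Dcn, Fmod, Ogn and Aspn. Over all 146299065 pairs of tested features 35.4% had groups that did not overlap, so 6 of 21 is no larger share than the background. Each of the 6 had an exact permutation p of 0.0286, two-sided, the smallest that 70 assignments of 4 against 4 can give, and after adjustment over the 21 pairs the smallest value was 0.1, so 0 pairs passed.

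**Figure D4:**
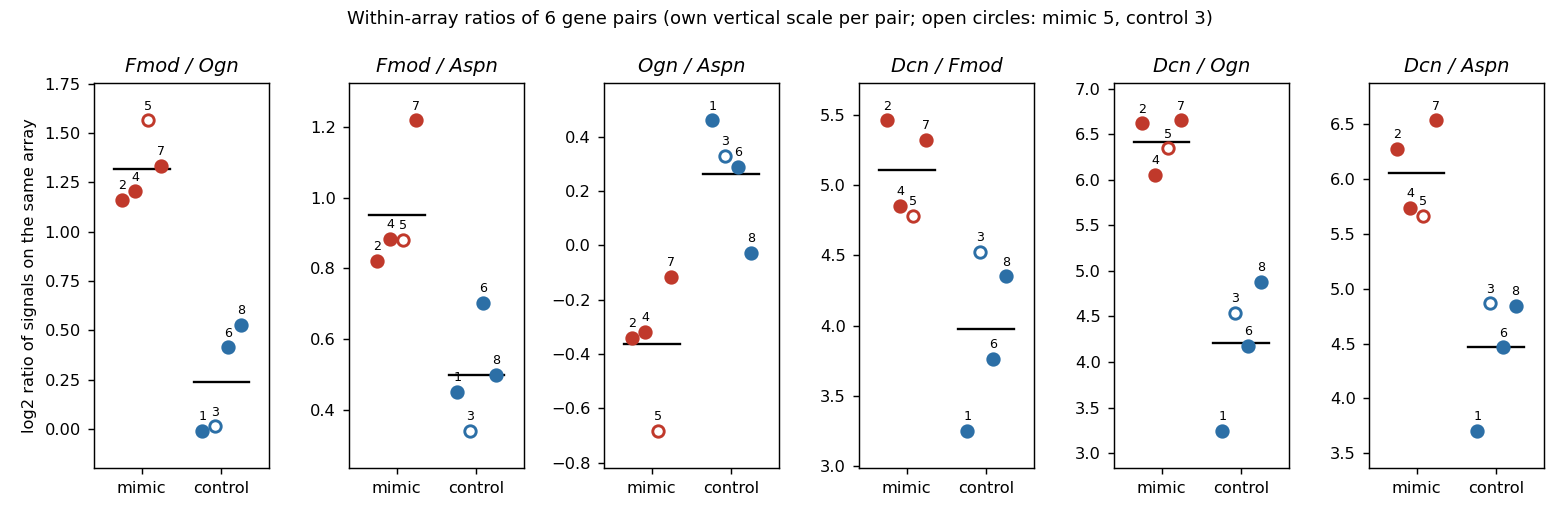
Log2 ratio of the signals of 2 SLRP genes on the same array (vertical axis, own scale per pair) for the 6 pairs whose groups do not overlap, in 4 mimic arrays (left, red) and 4 control arrays (right, blue), with the sample number at each point, the mean as a line and mimic 5 and control 3 as open circles. The Fmod to Ogn ratio lies between 1.16 and 1.56 in mimic arrays and between -0.01 and 0.53 in control arrays, and the open circles fall within or next to their groups.

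Several SLRP genes are neighbours in the genome. In the RefSeq gene order of GRCm38.p6, Aspn, Omd and Ogn follow each other on chromosome 13 beside Ecm2, Dcn and Lum adjoin on chromosome 10 beside Kera and Epyc, and Prelp and Fmod adjoin on chromosome 1 beside Optc. Aspn and Ogn flank Omd, which was not above background on any array. Both had lower means with the mimic, neither of them called. They shared the low arrays, but so did Dcn, Lum, Fmod and Podn at other sites. Dcn and Lum, also neighbours, had log2 fold changes of 1.18 and 0.94, of which that of Lum was not called (limma adjusted p = 0.360). They stood at 1.83 and 2.41 within slide row 1, and at 0.53 and -0.52 within row 2. Their ratio differed by 0.24 between groups (exact permutation p = 0.686), which does not show that they changed alike. Of the other SLRP genes at these sites, Ecm2, Kera and Epyc were above background on 0 arrays, and Optc had a log2 fold change of 0.45 (limma adjusted p = 0.672).

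The bases just upstream of the start are shown for 4 members, Fmod, Ogn and Aspn because their signals moved together over the arrays, and Bgn because it did not share the low arrays. Each is the 250 bases before the annotated start on the plus strand (RefSeq, GRCm38.p6), at chrX:73483351-73483600 for Bgn, chr1:134037004-134037253 for Fmod, chr13:49607765-49608014 for Ogn and chr13:49544193-49544442 for Aspn. The RefSeq table held windows for 7 of the 9 members; Dcn and Lum are named only. Capitals mark matches on either strand to any of 6 motifs that were searched. TATAAA was taken as the TATA box and CCAAT as the CCAAT box. The GC box was searched as GGGCGG, and the AP-1 site of Fos and Jun proteins as TGANTCA. The site of TEAD factors was searched as GGAATG, and that of SMAD proteins as CAGACA.
Bgn: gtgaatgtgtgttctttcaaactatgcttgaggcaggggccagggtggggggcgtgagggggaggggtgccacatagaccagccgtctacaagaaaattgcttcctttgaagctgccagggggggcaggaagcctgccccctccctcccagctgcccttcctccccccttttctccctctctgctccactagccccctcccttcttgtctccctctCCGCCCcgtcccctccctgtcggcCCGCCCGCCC
Fmod: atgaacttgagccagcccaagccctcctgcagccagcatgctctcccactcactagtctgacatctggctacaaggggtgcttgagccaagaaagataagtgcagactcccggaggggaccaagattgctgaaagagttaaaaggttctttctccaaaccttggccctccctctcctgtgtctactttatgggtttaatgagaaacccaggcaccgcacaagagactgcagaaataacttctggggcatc
Ogn: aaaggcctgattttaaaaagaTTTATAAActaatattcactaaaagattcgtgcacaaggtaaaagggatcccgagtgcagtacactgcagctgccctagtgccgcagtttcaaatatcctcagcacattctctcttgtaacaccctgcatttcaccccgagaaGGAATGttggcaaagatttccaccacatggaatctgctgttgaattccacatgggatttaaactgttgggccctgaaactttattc
Aspn: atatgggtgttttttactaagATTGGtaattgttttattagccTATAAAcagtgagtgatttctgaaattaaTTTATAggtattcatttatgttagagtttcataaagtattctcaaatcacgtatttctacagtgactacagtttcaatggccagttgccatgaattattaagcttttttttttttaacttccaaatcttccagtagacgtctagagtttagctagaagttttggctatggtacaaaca

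The G and C content of these windows was 64.4% for Bgn, 51.2% for Fmod, 42.0% for Ogn and 30.0% for Aspn, which put Aspn at the 1.47 percentile of 32851 such windows and Bgn at the 81.6 percentile. Podn, which shared the low arrays with Fmod, Ogn and Aspn, had windows of 78.0% and 64.0% (97.9 and 80.8 percentile), not printed here. A link of this content to the low arrays was not tested. The Bgn window held 3 GGGCGG matches, of which a pair overlaps at its end, and GGGCGG occurs in 32.7% of all windows. The first Podn window held 2. Ogn and Aspn each held 2 TATAAA matches, in Ogn overlapping on opposite strands, and TATAAA occurs in 12.4% of windows. All of these matches lay nearer the far end of the window than the annotated start, and position was not part of the search. Ogn also held GGAATG, found in 12.6% of windows, and Aspn held CCAAT, found in 33.8%. The Fmod window held none of the 6 motifs, and none of these 4 windows held TGANTCA or CAGACA, found in 6.75% and 17.1% of windows. No searched motif was common to the Fmod, Ogn and Aspn windows, which says nothing of the factors that bind there.

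The genes outside the family whose signal over the 8 arrays was most like each member were ranked by Pearson correlation, given as a description of these 8 arrays, which share the low arrays and the group difference. Dcn was most like Igfbp2 (r = 0.981), which encodes an IGF-binding protein and was 1.16 higher in mimic cells (limma adjusted p = 0.0402), Kitl (0.977) and Unc93b1 (0.974). Bgn was most like Antxr1 (0.987), an anthrax toxin receptor that binds collagen and was 0.68 higher (limma adjusted p = 0.00128), Ccl25 (0.980) and Mir22hg (0.979). Lum was most like Mfap4 (0.993), a microfibril-associated protein, Dlk1 (0.982) and P2rx3 (0.978). Mfap4 showed the same low arrays, with log2 levels of 4.17, 3.36, 1.89 and 3.41 in mimic 2, 4, 5 and 7, against 2.58, 1.06, 2.44 and 3.24 in control 1, 3, 6 and 8.

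Fmod was most like Lrrn1 (r = 0.997), Pcdhb16 (0.958) and Prkca (0.951), of which Lrrn1 and Pcdhb16 were above background on 1 of 4 mimic and 3 of 4 control arrays. Ogn was most like Col5a2 (0.987), Kdm5c (0.979) and Ptn (0.978), and Aspn like Srpx (0.983), Invs (0.965) and Lgr5 (0.964). Podn was most like Klhl29 (0.987), Phyhd1 (0.968) and C1qtnf5 (0.967). With the group means subtracted, Mfap4 stayed the gene most like Lum (0.995), Lrrn1 that most like Fmod (0.997) and Klhl29 that most like Podn (0.987). Srpx then ranked next to Fmod (0.979) and Aspn (0.984), and Col5a2, a chain of the type V collagen that nucleates fibrils, stayed among the 3 genes most like Ogn (0.984).

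Beyond the 9 members, 4 of 9 other SLRP genes were tested, of which 1 rose and 1 fell, with a median log2 fold change of 0.35. Counts in this list and in the lists below, cell type markers included, stand beside 34.2% of all features called, 15.9% higher and 18.3% lower. Tsku, which encodes tsukushi, a secreted modulator of BMP and Wnt signalling, had log2 levels of 0.22, 0.28, -0.31 and -0.08 in mimic 2, 4, 5 and 7, against -0.97, -0.52, -0.64 and -0.69 in control 1, 3, 6 and 8. All mimic arrays lay above all controls, and Tsku was 0.73 higher (SE 0.15, limma adjusted p = 0.00741). Chadl, encoding a chondroadherin-like protein, fell by 1.04 (SE 0.25, limma adjusted p = 0.0139) and was above background on 3 of 4 mimic arrays. Tsku and Chadl kept their calls without any single array, and with normexp background correction their values were 0.48 and -0.66.

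Enzymes that build chondroitin and dermatan sulfate chains changed in both directions. Of 24 tested, 5 rose and 5 fell, with a median of 0.02, the same as over all features. Chst11, a chondroitin sulfotransferase, was 1.55 higher (SE 0.22, limma adjusted p = 0.00119), and Ugdh, which makes the UDP-glucuronic acid used in the chains, was 0.65 higher (SE 0.12, limma adjusted p = 0.00466). Papss1, which makes the sulfate donor, fell by 0.68 (SE 0.11, limma adjusted p = 0.00179), and Chpf, a chondroitin polymerizing factor, fell by 0.43 (SE 0.08, limma adjusted p = 0.00441). Sulfotransferases stood on both sides of the comparison, with Chst12 also called higher and Chst14 and Chst15 called lower.

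For keratan sulfate assembly and tyrosine sulfation, modifications of the class II members, 3 of 7 tested genes rose and 0 fell, with a median of 0.38. Chst1, a keratan sulfate sulfotransferase, had log2 levels of 4.27, 3.89, 4.07 and 3.55 in mimic 2, 4, 5 and 7, against 2.59, 2.97, 2.31 and 2.60 in control 1, 3, 6 and 8. The groups did not overlap, and Chst1 was 1.33 higher (SE 0.18, limma adjusted p = 0.000925). B4galt1, a galactosyltransferase, was 0.43 higher (limma adjusted p = 0.0203), and Tpst2, a tyrosylprotein sulfotransferase, 0.40 higher (limma adjusted p = 0.0361). The Tpst2 call was lost without any single array other than control 3 (limma adjusted p from 0.0576 to 0.0859), and the B4galt1 call without control 6 or control 8 (0.0544 and 0.0542). Both calls were also lost with normexp background correction (0.0598 for B4galt1 and 0.0745 for Tpst2), with no background filter (0.0828 and 0.124) and with slide column as a block (0.0816 and 0.0904).

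Proteases known to mature or cleave SLRPs or to trim procollagen were listed together with the enhancers Pcolce and Pcolce2. Of 13 tested genes in this list 6 were called higher, Pcolce among them, and 1 lower, with a median of 0.46. Mmp2, a gelatinase, had log2 levels of 5.23, 4.90, 4.27 and 4.79 in mimic 2, 4, 5 and 7, against 2.66, 3.08, 2.76 and 2.96 in control 1, 3, 6 and 8. The groups lay more than 1 apart, and Mmp2 was 1.93 higher (SE 0.20, limma adjusted p = 0.000189). Mmp14, a membrane-bound activator of Mmp2, was 0.48 higher (SE 0.09, limma adjusted p = 0.00535), and Pcolce, the procollagen C-proteinase enhancer, 0.42 higher (SE 0.08, limma adjusted p = 0.00401). Adamts5, an aggrecanase that also cleaves other proteoglycans, fell by 1.17 (SE 0.12, limma adjusted p = 0.000197). Mmp2 and Adamts5 kept their calls without any single array and within each slide row, and with normexp background correction Adamts5 stood at -0.63.

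**Figure D5:**
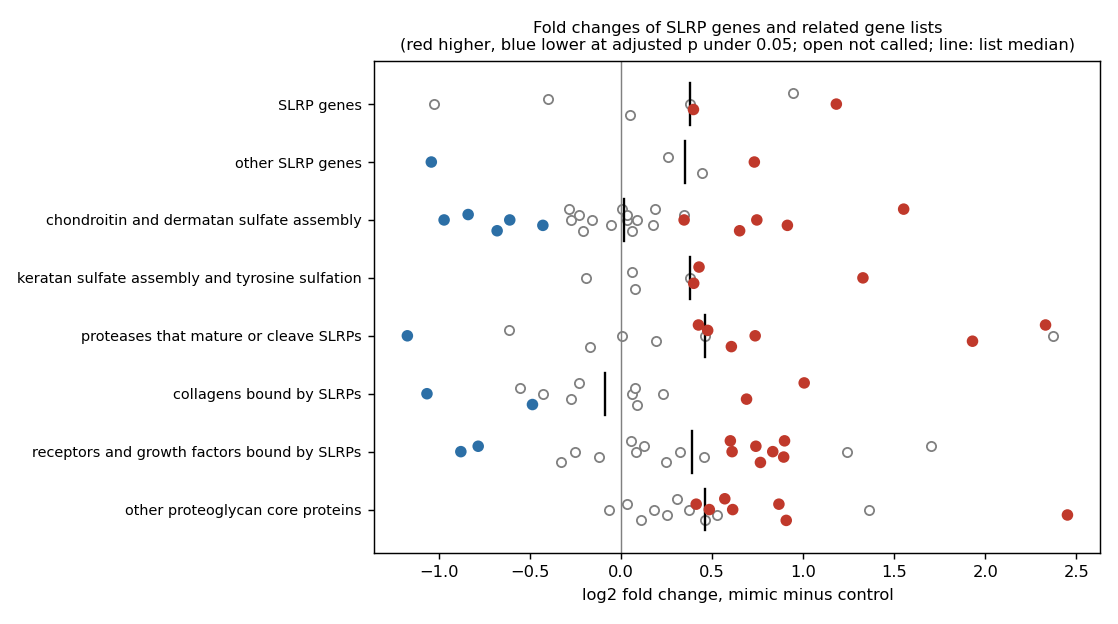
Log2 fold change, mimic minus control (horizontal axis), of each tested gene in the SLRP family and in 7 related lists (rows); red points rose and blue points fell at a limma adjusted p under 0.05, open points were not called, and the vertical line is the median of the list. The medians run from -0.09 for collagens to 0.46 for proteases and other proteoglycan core proteins, beside 0.02 over all features.

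Of the collagens bound by SLRPs, 2 of 12 tested genes rose and 2 fell, with a median of -0.09. Col1a1 and Col1a2, the chains of type I collagen, differed by 0.07 (95% interval -0.18 to 0.33) and 0.06 (-0.13 to 0.25), neither called. Col12a1, a fibril-associated collagen, was 0.69 higher (SE 0.13, limma adjusted p = 0.00487), and Col11a1, above background on all mimic arrays and 3 of 4 control arrays, 1.01 higher (SE 0.22, limma adjusted p = 0.00808), or 0.38 with normexp background correction. Col3a1, the fibrillar partner of type I collagen in skin, had log2 levels of 5.81, 5.24, 5.19 and 5.12 in mimic 2, 4, 5 and 7, against 6.81, 5.51, 6.56 and 6.74 in control 1, 3, 6 and 8. Control 3 lay within the mimic range, as it did for Ogn, and Col3a1 fell by 1.07 (SE 0.29, limma adjusted p = 0.0232). Col6a3, a chain of the microfibrillar type VI collagen, fell by 0.49 (SE 0.14, limma adjusted p = 0.0276).

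The Col3a1 and Col6a3 calls were each lost without some single arrays: that of Col3a1 without control 1, 6 or 8 or mimic 4, 5 or 7 (limma adjusted p from 0.0505 to 0.0644), and that of Col6a3 without control 1 or 8 or mimic 2, 4 or 7 (0.0591 to 0.0738). With no background filter both were lost (0.0674 and 0.0946), and Col6a3 also with scaling to the median (0.0517). Without control 3, the count became 2 higher and 5 lower, adding Col5a2 (-0.58, limma adjusted p = 0.00727), Col6a1 (-0.38, limma adjusted p = 0.00753) and Col6a2 (-0.43, limma adjusted p = 0.0184). Over all 8 arrays these 3 stood at -0.43, -0.23 and -0.27 and were not called (limma adjusted p = 0.0687, 0.227 and 0.235). Col5a1, Col5a3 and Col14a1 stood at 0.23, -0.55 and 0.09 (limma adjusted p = 0.166, 0.185 and 0.671), and Col14a1 stood at -0.24 with its probes averaged (limma adjusted p = 0.370).

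Among receptors and growth factors that SLRPs are known to bind, 7 of 20 tested genes rose and 2 fell, with a median of 0.39. Tgfb1, the growth factor that decorin, biglycan and fibromodulin can bind, had log2 levels of 3.04, 2.98, 2.99 and 3.13 in mimic 2, 4, 5 and 7, against 1.98, 2.40, 2.17 and 2.04 in control 1, 3, 6 and 8. The groups did not overlap, and Tgfb1 was 0.89 higher (SE 0.10, limma adjusted p = 0.000404). Lrp1, an endocytic receptor that takes up decorin, was 0.74 higher (SE 0.09, limma adjusted p = 0.000480), and Egfr, a receptor bound by decorin, 0.83 higher (SE 0.11, limma adjusted p = 0.000930). Ccn4, a matricellular protein that binds decorin and biglycan, fell by 0.88 (SE 0.12, limma adjusted p = 0.00110). These 4 calls held without any single array and with the probes of a gene averaged, where Egfr stood at 0.90 and Ccn4 at -0.85.

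Macrophage and leukocyte markers also differed between the groups, and macrophages are known to express Tlr2, Tlr4 and Tgfb1. Of its 10 genes 9 were tested and 8 rose, among them Lyz2 (1.79 higher, limma adjusted p = 0.000202) and Csf1r (1.04 higher, limma adjusted p = 0.000808), whereas Ptprc was not above background on enough arrays to be tested. The summed level of the tested markers ran between 6.00 and 6.23 in mimic arrays, against 5.17 and 5.50 in control arrays. The part of these cells in the SLRP, receptor and protease results was not tested. Fibroblast markers were all 10 tested, with S100a4 higher, Pdgfra lower, and a summed level between 11.2 and 11.4 in mimic arrays, against 11.0 and 11.2 in control arrays. Markers of other cell types were tested beside them, with 6 of 6 for adipocytes, 5 of 6 for pericytes and smooth muscle, 5 of 7 for Schwann cells and melanocytes, 4 of 7 for skeletal muscle, 4 of 8 for keratinocytes, 3 of 6 for endothelium, 2 of 4 for tenocytes, 2 of 7 for osteoblasts and 1 of 8 for chondrocytes. Of these, endothelial Vwf was 1.97 higher (limma adjusted p = 0.000684) and melanocyte Pmel 1.10 higher (0.0407). Osteoblast Spp1 was 0.57 higher (limma adjusted p = 0.0463) and keratinocyte Krt10 0.36 higher (0.0120). The tenocyte markers split, with Scx at 1.04 (limma adjusted p = 0.0184) and Tnmd at -0.93 (0.0457). Mcam of pericytes fell by 0.43 (limma adjusted p = 0.0138). No adipocyte, skeletal muscle or chondrocyte marker was called.

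Of other proteoglycan core proteins, 7 of 17 tested genes, Esm1 among them, rose and 0 fell, with a median of 0.46. Agrn, which encodes agrin, a heparan sulfate proteoglycan of basement membranes, was 0.91 higher (SE 0.13, limma adjusted p = 0.00102). The syndecans Sdc2 and Sdc3, heparan sulfate proteoglycans of the cell surface, were 0.48 and 0.87 higher (limma adjusted p = 0.00601 and 0.00860). Esm1, encoding the secreted dermatan sulfate proteoglycan endocan, had log2 levels of 0.40, -0.0025, 0.19 and -0.23 in mimic 2, 4, 5 and 7, against -2.51, -0.88, -2.60 and -3.46 in control 1, 3, 6 and 8. The probe was above background on all 4 mimic arrays and 1 of 4 control arrays, so it passed the filter through the mimic group and the fitted difference of 2.45 (SE 0.47, limma adjusted p = 0.00466) is not a measured fold. With normexp background correction it was 1.15. Agrn, Sdc2 and Sdc3 kept their calls without any single array. The Esm1 call stayed as well, but it rests on the same filter, so this gives it no separate support.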

How the data were processed

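RNA (100 ng per sample) of 8 transfected fibroblast samples was labelled with Cy3 and read on 8 arrays of 1 slide, 4 mimic and 4 control. Per the file headers, the authors' scanner files hold intensity values from Agilent Feature Extraction 11.5.1.1, background-subtracted and detrended within the array and not normalized between arrays. The authors' deposited value table holds log2 values that differ from the log2 of the processed intensity by a single constant on each array (offset SD at most 2.78e-07 over probes), with column medians of -3.67, -3.67, -3.67 and -3.59 in mimic 2, 4, 5 and 7, against -3.77, -3.59, -3.61 and -3.66 in control 1, 3, 6 and 8; genes were not centred.

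Of 62976 spots, 3671 control spots and outlier spots were left out, and spots of a probe were averaged (55681 probes, 28331 matched by accession to a RefSeq gene table of GRCm38.p6). Each array's 75th percentile was subtracted on the log2 scale. Probes well above background on at least 4 of 8 arrays were tested, a gene being its brightest probe (17106 features). No spot was saturated. The comparison of mimic with control used lmFit and eBayes of limma 3.58.1 (R 4.3.3), a fit that was first tested on simulated data. Pearson correlations between arrays lay between 0.985 and 0.994 within mimic, 0.984 and 0.992 within control, and 0.960 and 0.981 between groups; the number of arrays limits the precision. Members and lists were chosen with earlier results of these data known. From each related list, up to 4 called genes with the smallest p are named, and every collagen; other genes in the text are cell type markers, genes ranked by likeness, or examples chosen after their values were seen. Alternatives changed background correction, scaling, filter, probe choice, slide row and column, value table, array weights, variance trend and arrays left out. The normexp alternative used median spot signals, since mean signals were not used here.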

Additional observations from a re-analysis of the deposited data

Results flagged for a closer look

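In 4 of the 80 groups of 4 arrays examined (the tested members and named related genes), 1 array lay far from the other 3 by Dixon's criterion at its 95% level, about the number that chance gives. Mmp14 in mimic 7 was 3.05, where the other 3 mimic arrays lay between 3.23 and 3.25. Ccn4 in mimic 5 was 6.43, against 5.89 to 5.97 in the other 3 mimic arrays. Col6a1 in control 3 was 6.96, where the other 3 controls lay between 7.49 and 7.59, and Col6a2 in control 3 was 4.65, against 5.24 to 5.32 in the other 3. No SLRP member met the criterion in either group.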

How the results depend on the processing

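Over 22 other settings the number of called SLRP genes, by gene or by probe, ran from 0 to 4 and the number of called features from 1611 to 7079. Leaving out single arrays gave 1 to 4 called SLRP genes, with log2 fold changes of 0.87 to 1.41 for Dcn, 0.34 to 0.43 for Bgn, 0.40 to 1.55 for Lum, -0.44 to 0.29 for Fmod, -1.45 to -0.71 for Ogn, -0.84 to -0.15 for Aspn and -0.017 to 0.76 for Podn. The lowest Fmod, Ogn, Aspn and Podn values, the lowest of Dcn and Lum and the count of 4 came without control 3. With no background filter, 3657 features were called, the median of all genes moved to 0.12, and 0 SLRP genes were called, with Dcn at 1.18 (limma adjusted p = 0.0887) and Bgn at 0.40 (0.0508). More features enter that adjustment, and the SE of Bgn was also larger, at 0.105 against 0.086 with the filter. With slide column as a block, 0 were called, with Dcn at 1.18 (0.0573) and Bgn at 0.40 (0.0502). Slide row 1 alone (1763 features called, 1 SLRP gene) gave Bgn 0.41 and Aspn 0.11, and row 2 alone (1611 features, 1 SLRP gene) gave Dcn 0.53, Bgn 0.38, Lum -0.52, Fmod -0.47, Aspn -0.91 and Podn -0.70; each row holds 2 arrays per group. Array weights gave Fmod -0.083 and Ogn -1.10 (0.0391). Leaving out mimic 5 and control 3 together gave 4 called, with Fmod -0.32, Ogn -1.24 and Aspn -0.74. The causes of these shifts were not tested. Background correction, quantile or median scaling, the stricter filter, averaged probes, slide row as a block, the deposited table and the intensity trend kept both calls and called no other member. The labels give the groups no shared sample numbers, and the fit with slide column as a block, given above, is the one that pairs arrays, 1 mimic with 1 control in each of 4 columns. Of 25 called genes named from the related lists, 23 stayed called under that block, 5 within row 1 and 12 within row 2, with all 25 in the same direction; row 1 gave Col3a1 -0.64 and Sdc3 0.48, and row 2 Tsku 0.47.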
